A study of Mus musculus with 9 samples.

Results

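Mice that carry C59A or C59S, 2 knock-in alleles of Nfkb1, were taken as 1 group and their kidney gene expression was compared with that of wild-type (WT) mice. RNA sequencing of total RNA gave 9 libraries, 3 of WT, 3 of C59A and 3 of C59S, so that 6 knock-in libraries were set against 3 WT libraries. Genes of chromosomes 1 to 19 were taken: 48329 of the 52636 genes in the table, of which 16540 had enough reads to be tested. Levels are given as CPM, the usual unit of reads scaled to the library total, here times a TMM factor, which balances the bulk of the genes between libraries. A gene is called separated where its CPM in all 6 knock-in libraries lay above, or in all 6 below, its CPM in all 3 WT libraries. Of the 16540 genes 1166 were separated (7.05%), 528 with the knock-in libraries above WT (3.19%) and 638 with them below (3.86%). On raw counts without any scaling the separated genes numbered 362, 62 above WT and 300 below, so both the count and its balance depend on the scaling. Separation describes the order of the libraries and is no test. The test was the quasi-likelihood F test of edgeR, adjusted by Benjamini and Hochberg over all tested genes at a threshold of 0.05, which 1 of the 16540 genes passed (0.00605%): Rac3, which was lower in the knock-in libraries.

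The WT mice carry the unchanged Nfkb1 gene. In both knock-in lines the codon of cysteine 59 of Nfkb1 was replaced, and a PGK-neo selection cassette was placed in a nearby intron, which sets both alleles apart from WT. The lines were made in embryonic stem cells derived from C57BL/6NTac and passed through C57BL/6 blastocysts, and tail DNA of the offspring was sequenced. The label for C59A is activated and that for C59S inactivated, but the text on DNA binding lists them in the reverse order and gives alanine for both codon changes. No direction of NF-kB activity is therefore assumed here. The alleles are inherited, so all cell types of the kidney carry them, and the labels give no age, sex, litter, zygosity, treatment or number of stem cell clones. They also do not say that the replicates of a genotype are separate animals. The p-values therefore rest on the variation among the libraries, whatever its source, technical handling included.

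Total counts ran from 16367403 to 25787659 per library. Mitochondrial genes took 16.4% to 19.6% of the counts in WT and 20.5% to 40.6% in the knock-in libraries, a difference of 8.59 percentage points (exact permutation test, two-sided p = 0.0714, where the smallest p possible with 84 arrangements is 0.0119). Transcripts of 4 Y-linked genes summed to between 167 and 175 CPM in the C59A libraries and to at most 2.56 CPM elsewhere, so the knock-in group mixes libraries with and without them. Median log2 fold change over the 16540 genes was 0.01, and 48.5% of the values were negative. Kidney markers were read in every library, with the summed CPM of 24 proximal tubule genes between 12745 and 23903.

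Nfkb1 encodes the precursor of p50, a subunit that binds DNA at kappaB sites as a homodimer or together with a Rel protein, and p50 lacks the transactivation domain that Rel proteins carry. Dimers are held in the cytosol by IkappaB proteins until kinases mark these for degradation. In the kidney the pathway is best known for its part in inflammatory and injury responses of tubule cells and infiltrating leukocytes. Rac3 encodes a small GTPase of the Rac group, which cycles between a GTP-bound and a GDP-bound state and acts on the actin cytoskeleton and on NADPH oxidases.

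Rac3 fell in the knock-in kidney. The gene (ENSMUSG00000018012) lies on chromosome 11 from 120721470 to 120723969 on the plus strand of GRCm38. Its level was 26.7, 19.6 and 17.3 CPM in WT, from 634, 390 and 363 reads. The C59A libraries held 7.00, 7.71 and 8.44 CPM, and the C59S libraries 8.54, 7.35 and 7.76 CPM. The 6 knock-in values lay close together and the lowest WT value was 2.03 times the highest of them, so the groups did not overlap, and on reads without any scaling they did not overlap either (115 to 229 reads in the knock-in libraries). The log2 fold change of the knock-in group against WT was -1.44 ± 0.15 (SE, 6 against 3 libraries, edgeR adjusted p = 0.0133), and the next smallest adjusted p of any gene was 0.1001.

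Per allele, Rac3 stood at -1.46 ± 0.18 in C59A against WT (edgeR adjusted p = 0.000962) and at -1.43 ± 0.18 in C59S against WT (edgeR adjusted p = 0.0831). These values share the WT libraries. C59A and C59S differed by -0.03 ± 0.18 on the log2 scale (edgeR adjusted p = 0.944), and a p of that size does not show that the alleles act alike. Rac3 was past the threshold in 18 of 25 other ways of processing, with log2 fold changes from -1.66 to -1.24. Among the 7 that missed it were the fits with the mitochondrial share as a covariate (edgeR adjusted p = 0.283) and with the replicate number as a block (0.146). With that covariate the log2 fold change was -1.50. The mitochondrial share was higher in every knock-in library than in every WT library, so that fit cannot fully tell it apart from genotype. The other fits that missed the threshold left out WT replicate 1 (edgeR adjusted p = 0.0938), WT replicate 2 (0.0813), C59A replicate 1 (0.0735), C59A replicate 2 (0.0601) or C59S replicate 2 (0.0676).

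The genes around Rac3 did not share its pattern of library order. Within 30 kb, Aspscr1, Cenpx, Lrrc45, Dcxr and Cbr2 were tested, none overlaps Rac3 and none was separated. Lrrc45, which ends just upstream on the same strand, had 114, 83.8 and 96.3 CPM in WT and 64.1 to 88.1 CPM in the knock-in libraries, with a log2 fold change of -0.38 ± 0.14 (edgeR adjusted p = 0.287). On a per-length scale (FPKM), Rac3 held 13.2 to 20.2 in WT and 5.34 to 6.55 in the knock-in libraries. Rac1, the widely expressed Rac, held 13.4 to 17.1 FPKM in WT and 14.8 to 19.6 in the knock-in libraries, which overlap. Rac2, the Rac of blood cells, held 1.51 to 3.52 FPKM in WT and 2.22 to 4.68 in the knock-in libraries, again overlapping. Per length, the levels of Rac3 and Rac1 thus overlapped in WT, while in the knock-in libraries every Rac3 value lay below every Rac1 value.

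Because the changed codon lies in a DNA-binding subunit, the 250 bases upstream of the start sites were searched on both strands for the kappaB consensus. RefSeq windows (GRCm38.p6) were matched for 10776 of the 13940 tested protein-coding genes, and 484 of them held a match (4.49%). Among separated coding genes the share was 4.95% (20 of 404) where the knock-in libraries lay above WT and 4.80% (20 of 417) where they lay below, both near that of all genes. The window of Rac3 (chr11:120721218-120721467, plus strand) held no match, which says only that these letters are not in it. Of the 24 genes that lead the separated genes below, 20 had a window and 1, Nrtn, held a match (chr17:56757549-56757798, minus strand), 198 bases before the start of the transcript. Vegfa, described with the hypoxia genes, held a match 109 bases before its start (chr17:46032378-46032627, minus strand). The 3 windows are printed 5′ to 3′ on the strand of the gene to show the member that passed the test beside 2 genes with a match, which stands in capitals. Fosl2 held 2 overlapping matches as well, but its RefSeq start lies 671 bases from the start of the gene in the table, and its window is not printed. A match describes the letters and is not a bound site.
Rac3: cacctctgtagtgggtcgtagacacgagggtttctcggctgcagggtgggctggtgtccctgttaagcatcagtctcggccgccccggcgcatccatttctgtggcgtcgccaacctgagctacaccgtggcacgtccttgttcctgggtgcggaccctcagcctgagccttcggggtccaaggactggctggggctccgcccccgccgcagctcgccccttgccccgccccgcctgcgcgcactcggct
Nrtn: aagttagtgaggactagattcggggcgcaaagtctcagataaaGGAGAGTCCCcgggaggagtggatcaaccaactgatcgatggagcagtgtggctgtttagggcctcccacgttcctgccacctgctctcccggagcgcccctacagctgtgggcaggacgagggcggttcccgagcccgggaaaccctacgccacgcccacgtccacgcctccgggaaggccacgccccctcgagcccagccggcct
Vegfa: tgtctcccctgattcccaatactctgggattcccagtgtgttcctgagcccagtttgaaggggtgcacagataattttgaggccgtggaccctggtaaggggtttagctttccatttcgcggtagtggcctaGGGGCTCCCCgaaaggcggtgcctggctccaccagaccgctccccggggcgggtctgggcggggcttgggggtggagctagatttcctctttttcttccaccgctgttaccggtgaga

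The separated genes below WT were led by Rac3 and 11 protein-coding genes of smallest p, none of which but Rac3 passed the pooled test. Each of the 11 had an edgeR adjusted p of 0.1001. Ggnbp1, a gametogenetin-binding protein, had 142, 121 and 119 CPM in WT, 83.6, 67.8 and 80.8 CPM in C59A and 76.6, 79.7 and 76.1 CPM in C59S. Its knock-in values lay within a narrow band well under WT (log2 fold change -0.72 ± 0.10). Chrna4, a subunit of neuronal nicotinic acetylcholine receptors, had 122, 176 and 115 CPM in WT, 61.5, 43.0 and 58.3 CPM in C59A and 68.6, 59.6 and 74.5 CPM in C59S. The highest knock-in value was still well short of the lowest WT value, and the log2 fold change was -1.17 ± 0.18. Greb1l, a gene needed for kidney development, had 19.3, 16.9 and 12.9 CPM in WT, 7.85, 7.31 and 6.72 CPM in C59A and 4.48, 8.80 and 6.82 CPM in C59S. Its log2 fold change of -1.22 ± 0.20 was the largest drop of the 12 after that of Rac3.

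Kmt2a, the histone H3 lysine 4 methyltransferase MLL1, had 108, 109 and 101 CPM in WT against 58.3 to 73.6 CPM in the knock-in libraries. The WT values lay close together and far above the others (log2 fold change -0.67 ± 0.10). Mbtd1, a subunit of the TIP60 acetyltransferase complex, had 31.4, 30.8 and 29.6 CPM in WT against 19.3 to 22.4 CPM, a log2 fold change of -0.56 ± 0.09. N4bp2, which binds NEDD4 and the IkappaB family protein BCL3, had 26.7, 25.6 and 23.1 CPM in WT against 12.9 to 16.6 CPM (log2 fold change -0.74 ± 0.12).

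Of the others, Fggy, a carbohydrate kinase, had 133, 140 and 119 CPM in WT against 61.8 to 87.2 CPM in the knock-in libraries. Appl2, an adaptor of early endosomes, had 105, 122 and 86.9 CPM against 55.1 to 67.4 CPM. Sema4a, a membrane semaphorin, had 177, 160 and 145 CPM against 93.4 to 115 CPM. None of these ranges met, and the log2 fold changes were -0.77 ± 0.12, -0.74 ± 0.12 and -0.66 ± 0.11 for Fggy, Appl2 and Sema4a. Ccdc141, a coiled-coil protein, had 90.3, 91.1 and 92.6 CPM in WT against 51.9 to 67.1 CPM. Sfxn2, a sideroflexin of the mitochondrial inner membrane, had 66.9, 77.7 and 57.7 CPM in WT against 37.2 to 46.9 CPM. For Ccdc141 the WT spread was small beside the distance to the knock-in values, while for Sfxn2 the WT values themselves were wide, and their log2 fold changes were -0.66 ± 0.11 and -0.72 ± 0.12.

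**Figure D1:**
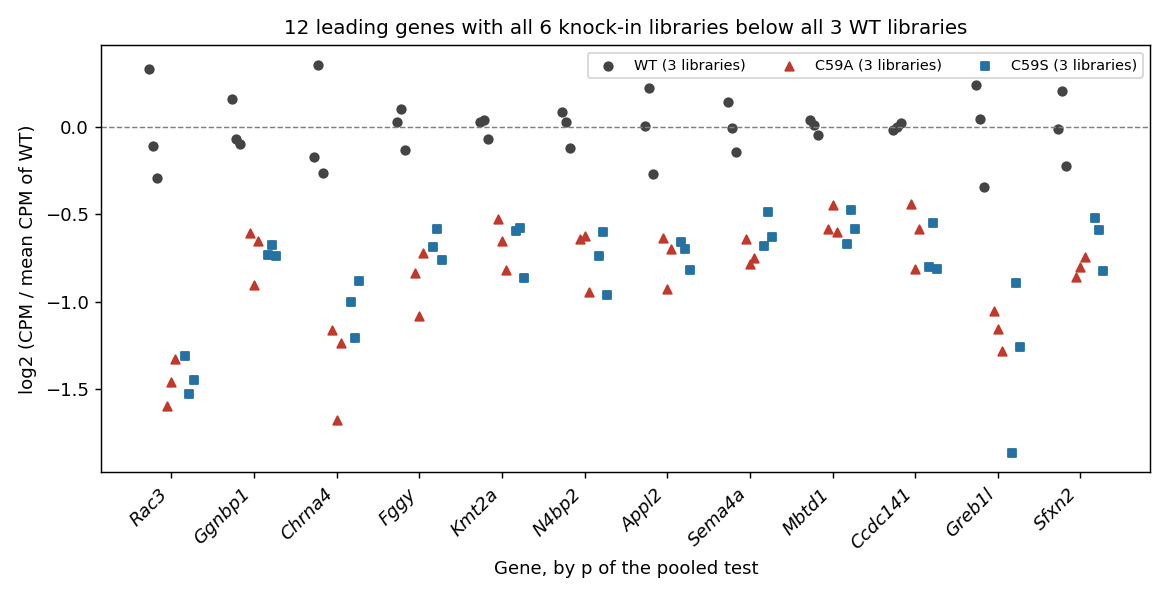
Levels of the 12 leading genes with all 6 knock-in libraries below WT, as log2 of the CPM over the mean CPM of WT (vertical axis) per gene (horizontal axis, by p of the pooled test), with 1 point per library and the 3 genotypes in different colours and shapes. For every gene the 3 WT points sit above all 6 knock-in points, and for Rac3 the 6 knock-in points lie in the narrow range from 7.00 to 8.54 CPM.

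No gene above WT passed the pooled test, although 1084 had an unadjusted p under 0.05 in that direction (6.55% of the tested genes, beside 1282 or 7.75% in the lower direction) and DESeq2 called 152. The 12 leading coding genes separated upward had edgeR adjusted p-values from 0.119 to 0.163. Ccm2, a scaffold of the cerebral cavernous malformation complex, had 20.3, 20.9 and 21.8 CPM in WT, 29.2, 28.7 and 28.7 CPM in C59A and 29.0, 28.8 and 30.6 CPM in C59S. Both groups were tight and far apart relative to their spread (log2 fold change 0.47 ± 0.09, edgeR adjusted p = 0.119). Nrtn, the GDNF family ligand neurturin, had 17.7, 18.6 and 15.6 CPM in WT, 28.4, 36.4 and 41.3 CPM in C59A and 26.6, 25.7 and 27.7 CPM in C59S. All knock-in values exceeded WT, those of C59A more than those of C59S, and the log2 fold change was 0.84 ± 0.17 (edgeR adjusted p = 0.153).

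Bok, a pro-apoptotic BCL2 family member, had 13.8, 11.4 and 18.7 CPM in WT, 30.3, 37.6 and 29.6 CPM in C59A and 22.5, 23.1 and 27.4 CPM in C59S. Rrm2b, the p53-inducible subunit of ribonucleotide reductase, had 12.0, 13.1 and 11.9 CPM in WT against 16.6 to 24.2 CPM in the knock-in libraries. Dnajb9, a co-chaperone of the endoplasmic reticulum, had 22.03, 17.7 and 22.7 CPM in WT against 27.9 to 30.2 CPM. Log2 fold changes were 0.95 ± 0.20, 0.68 ± 0.14 and 0.49 ± 0.10 for Bok, Rrm2b and Dnajb9, and the knock-in values of Dnajb9 were the most even.

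Reep5, which shapes the endoplasmic reticulum, had 66.1, 64.2 and 66.4 CPM in WT, 108, 128 and 124 CPM in C59A and 93.6, 92.8 and 89.7 CPM in C59S. Tmed5, a cargo protein of the p24 family, had 21.1, 18.2 and 24.8 CPM in WT against 26.8 to 39.5 CPM, and Arl1, a GTPase of the Golgi, had 72.7, 76.4 and 81.6 CPM against 98.7 to 121 CPM. The margin was wide for Reep5 and narrow for Tmed5, and the log2 fold changes were 0.69 ± 0.14 for Reep5, 0.70 ± 0.14 for Tmed5 and 0.50 ± 0.10 for Arl1. Pon2, a paraoxonase inside cells, had 11.1, 12.9 and 13.5 CPM in WT against 17.2 to 20.6 CPM (log2 fold change 0.61 ± 0.12). S100a11, a calcium-binding protein, had 133, 109 and 120 CPM in WT against 156 to 270 CPM (0.80 ± 0.17). Rpl17, a protein of the large ribosomal subunit, had 73.6, 70.9 and 86.9 CPM in WT against 107 to 139 CPM (0.68 ± 0.13), a value that may share reads with near-identical copies of the gene. Dpt, the matrix protein dermatopontin, had the widest gap of the 12 upward, with 1.81, 2.01 and 2.05 CPM in WT, 4.23, 17.2 and 5.34 CPM in C59A and 6.31, 9.79 and 16.5 CPM in C59S. Its knock-in values were spread over a wide range and all exceeded WT (log2 fold change 2.33 ± 0.49).

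**Figure D2:**
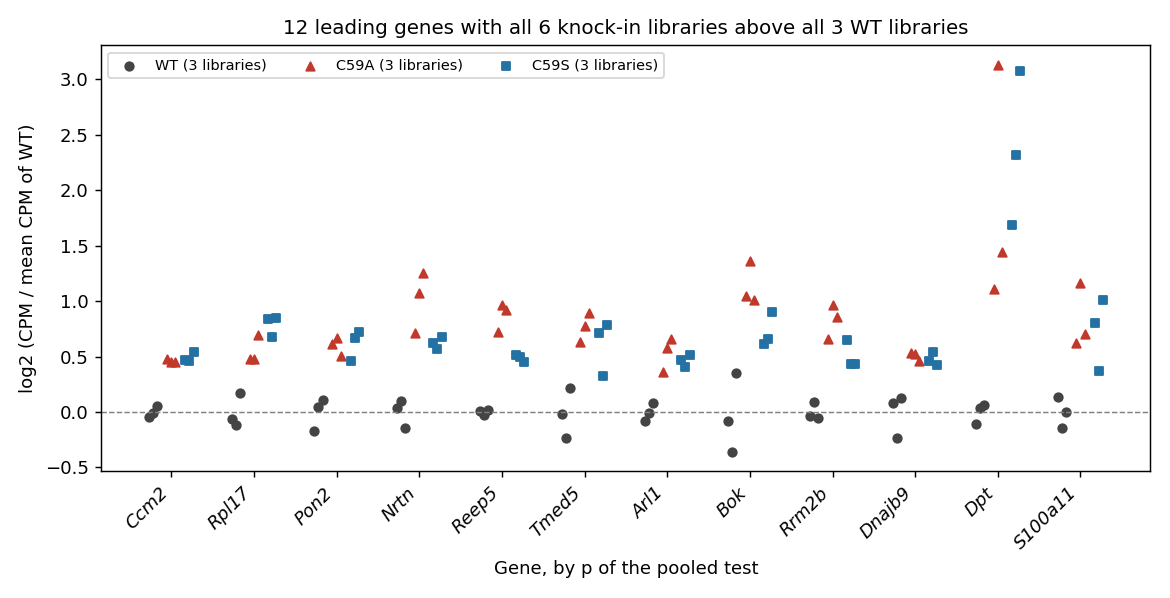
Levels of the 12 leading genes with all 6 knock-in libraries above WT, as log2 of the CPM over the mean CPM of WT (vertical axis) per gene (horizontal axis, by p of the pooled test), with 1 point per library and the genotypes in different colours and shapes. All knock-in points lie above the WT points, tightly for Ccm2 (28.7 to 30.6 CPM) and widely for Dpt (4.23 to 17.2 CPM).

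The pooled group holds 2 alleles, so a difference between them counts as spread in the pooled test. With the 3 genotypes as groups of their own and the mean of C59A and C59S set against WT, edgeR called 266 genes (1.61%), 111 higher (0.671%) and 155 lower (0.937%), of which 166 were separated and 100 were not. Rac3 had an edgeR adjusted p of 0.00142 in this fit. Rac3 and the other leading genes were picked out by their values in the same libraries, so their p-values in this fit add no support. The direct test between the alleles (edgeR, C59A against C59S) called 976 genes (5.90%), and 37 of the 1166 separated genes were among them (3.17%). None of the 24 leading genes passed it, the smallest edgeR adjusted p being 0.0612 for Reep5, where C59A exceeded C59S by 0.39 ± 0.11 on the log2 scale. The 24 were picked by a small p in the pooled test, where a difference between alleles counts as spread. That choice leans against genes that differ between alleles, so no conclusion is drawn from their absence. C59A against WT gave 936 called genes (5.66%). C59S against WT gave 0, beside 2990 genes with an unadjusted p under 0.05 and 615 called by DESeq2. Both comparisons share the WT libraries. All C59A libraries held Y-linked transcripts and at most 0.725 CPM of Xist, and all WT and C59S libraries at least 816 CPM of Xist, so in every contrast with C59A the allele and the sex of the animals cannot be told apart.

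A pooled value need not describe both alleles. A list of 12 male-biased kidney genes is an example, as its median log2 fold change was 3.65 in the pooled comparison, 4.59 in C59A against WT and -0.19 in C59S against WT. None of the 12 was separated, and all 12 were called between C59A and C59S. The 8 female-biased kidney genes had medians of -0.77 pooled, -3.39 in C59A against WT and -0.14 in C59S against WT, and none was separated. The C59A libraries that carry Y-linked transcripts were therefore far from both other genotypes on these lists, and the part of sex in any pooled value was not tested.

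Among kidney segments, the separated genes of the proximal tubule and the distal convoluted tubule all lay below WT, and none of them passed the pooled test. Of 24 proximal tubule genes 5 were separated below WT and 0 above it (Slc5a2, Slc5a12, Slc7a9, Slc6a19 and Slc34a1), beside 3.86% and 3.19% of all genes, and the median log2 fold change was -0.51. Slc5a2, the sodium-glucose cotransporter SGLT2 of the early proximal tubule, had 570, 692 and 475 CPM in WT, 249, 154 and 235 CPM in C59A and 211, 289 and 332 CPM in C59S. Its ranges were far apart (log2 fold change -1.24 ± 0.21, edgeR adjusted p = 0.119). Slc34a1, the main phosphate cotransporter of the tubule, had 6560, 6650 and 6663 CPM in WT, 4720, 3632 and 5108 CPM in C59A and 3161, 4549 and 4490 CPM in C59S. WT values of Slc34a1 were nearly equal while those of the knock-in libraries were widely spread (-0.63 ± 0.18, edgeR adjusted p = 0.211). Slc5a12, a sodium-lactate cotransporter, had 227, 249 and 112 CPM in WT against 36.9 to 90.6 CPM, and Slc7a9, the light chain of the cystine transporter, had 193, 221 and 174 CPM against 114 to 145 CPM. Fewer tubule cells and less RNA per cell cannot be told apart in such bulk libraries.

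Of 13 distal convoluted tubule genes 4 were separated below WT and 0 above it (Klhl3, Slc12a3, Slc8a1 and Wnk1), beside 3.86% and 3.19% of all genes, with a median log2 fold change of -0.51. Slc12a3, the thiazide-sensitive sodium-chloride cotransporter NCC, had 2104, 3304 and 1980 CPM in WT, 1073, 796 and 1292 CPM in C59A and 1431, 1386 and 1257 CPM in C59S. No knock-in value came near WT (log2 fold change -1.03 ± 0.22, edgeR adjusted p = 0.163). Klhl3, the ubiquitin ligase adaptor that targets WNK kinases, had 109, 122 and 123 CPM in WT against 69.0 to 95.6 CPM (-0.56 ± 0.11, edgeR adjusted p = 0.159). Slc8a1, a sodium-calcium exchanger, had 9.27, 10.1 and 10.4 CPM in WT against 3.68 to 7.35 CPM. Summed over the list, WT libraries held 3584 to 4755 CPM and knock-in libraries 1978 to 2716 CPM, without overlap.

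In the collecting duct and the glomerulus few or no genes were separated, near the 7.05% of all genes. Among principal cells of the collecting duct 1 of 11 genes was separated, the sodium channel subunit Scnn1a, with 121, 136 and 133 CPM in WT against 97.0 to 118 CPM. Among intercalated cells it was 1 of 13, the proton pump subunit Atp6v1b1, with 174, 172 and 227 CPM in WT, 86.3, 85.9 and 119 CPM in C59A and 131, 159 and 136 CPM in C59S. The margin of Scnn1a was small, and the drop of Atp6v1b1 was larger in C59A than in C59S by -0.55 ± 0.17 on the log2 scale (edgeR adjusted p = 0.0794, not past the threshold). Over the principal cell list 6 values were positive and 5 negative (pooled median 0.11), so the drop of Scnn1a does not describe that list. Over the intercalated list 2 were positive and 11 negative (pooled median -0.42). None of the 15 podocyte genes was separated (median -0.17). Against the same WT libraries the podocyte medians were -0.46 in C59A and 0.12 in C59S. Those of intercalated cells were -0.89 and -0.10, and those of principal cells -0.25 and 0.35. C59A against C59S called 4 of 15 podocyte, 4 of 13 intercalated and 0 of 11 principal cell genes (edgeR), beside 5.90% of all genes. In that contrast allele and sex cannot be told apart.

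**Figure D3:**
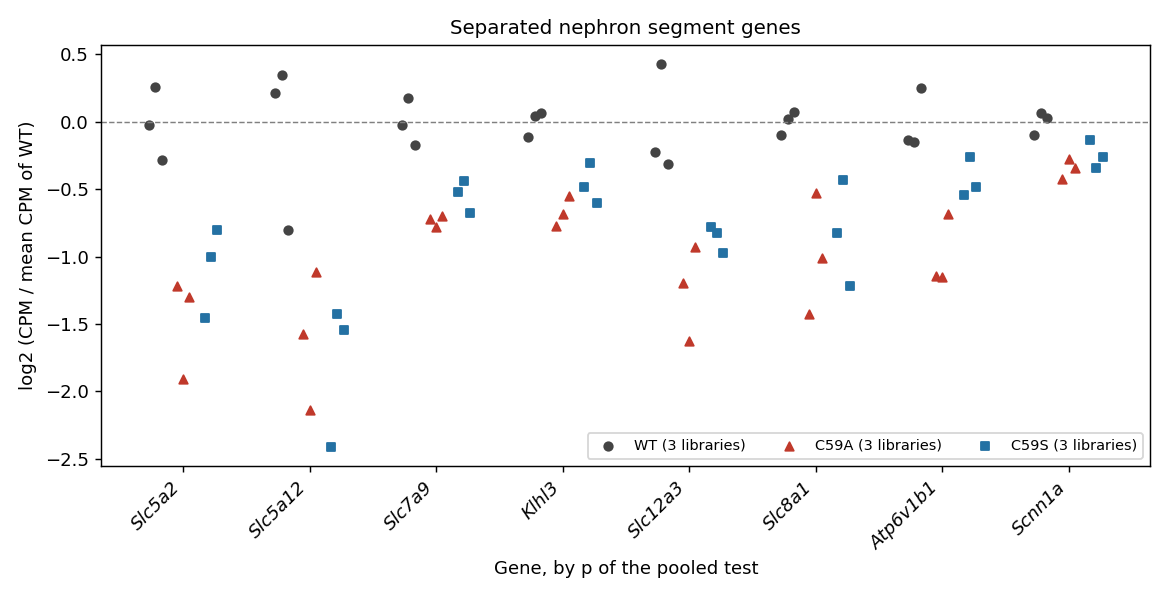
Levels of 8 separated nephron segment genes named by the rule, as log2 of the CPM over the mean CPM of WT (vertical axis) per gene (horizontal axis, by p of the pooled test), with 1 point per library and the genotypes in different colours and shapes. All knock-in points lie below the WT points of the same gene, and Slc5a12 shows the widest WT spread (112 to 249 CPM).

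Genes of phosphate and vitamin D handling overlap the tubule list. Of 13 such genes 3 were separated below WT and 0 above it, beside 3.86% and 3.19% of all genes, with a median of -0.33: Slc34a1, Slc34a3 and Cyp2r1. Slc34a3, another phosphate cotransporter, had 124, 147 and 108 CPM in WT, 69.4, 42.7 and 63.8 CPM in C59A and 79.7, 81.1 and 89.5 CPM in C59S (log2 fold change -0.83 ± 0.20, edgeR adjusted p = 0.171). Cyp2r1, a vitamin D 25-hydroxylase, was low throughout, at 0.800 to 1.21 CPM in WT against 0.373 to 0.722 CPM in the knock-in libraries.

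Of 30 genes of fatty acid oxidation and PPARA targets 2 were separated above WT and 1 below, near the 3.19% and 3.86% of all genes. None passed the pooled test. Against the same WT libraries the median was 0.60 in C59A and -0.19 in C59S. C59A against WT and C59A against C59S each called 9 of 30 (edgeR), beside 5.66% and 5.90% of all genes. In these contrasts allele and sex cannot be told apart. Cd36, a fatty acid translocase, had 39.8, 46.8 and 15.9 CPM in WT, 205, 196 and 257 CPM in C59A and 90.6, 76.8 and 104 CPM in C59S. The 3 genotypes formed 3 levels without overlap (pooled log2 fold change 2.18 ± 0.50, edgeR adjusted p = 0.171), and C59A exceeded C59S by 1.28 ± 0.33 (edgeR adjusted p = 0.0538). Acadl, the long-chain acyl-CoA dehydrogenase, had 185, 202 and 193 CPM in WT against 223 to 359 CPM. Ppara, the nuclear receptor that drives these genes, was separated the other way, with 16.6, 23.5 and 9.73 CPM in WT against 5.67 to 9.47 CPM, which left almost no margin (log2 fold change -0.99 ± 0.24, edgeR adjusted p = 0.178).

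Markers of fat cells were higher in several knock-in libraries. All 12 adipocyte genes had a positive pooled log2 fold change and 4 were separated above WT (Pparg, Fabp4, Cidec and Adipoq), beside 3.19% of all genes, with none past the pooled test. Their summed level was 159 to 354 CPM in WT, 311 to 525 CPM in C59A and 535 to 1924 CPM in C59S, so WT and C59A overlapped. Fabp4, a fatty acid carrier of fat cells and capillaries, had 62.9, 26.9 and 54.6 CPM in WT, 123, 160 and 137 CPM in C59A and 149, 339 and 650 CPM in C59S. Pparg, the master regulator of fat cells, had 1.05, 1.51 and 1.81 CPM in WT against 2.86 to 9.38 CPM. Cidec, a lipid droplet protein, had 5, 4 and 2 reads in WT, 171, 13 and 705 reads in C59A and 17, 1110 and 1447 reads in C59S. The reads of Cidec thus ranged widely within each allele. The part of fat tissue in other separated genes was not tested. Only 3 coding genes separated upward at a mean of at least 1 CPM had a wider gap than Rac3, namely Dpt, Cidec and Adipoq, while no such gene separated downward did. Adipoq had 0 to 0.0503 CPM in WT and 0.170 CPM in C59A replicate 2, the level of 3 reads in that library. Its separation and its gap thus rest on very few reads.

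No gene of the stroma, endothelium and leukocyte lists passed the pooled test (edgeR). Of 31 fibroblast and matrix genes 2 were separated above WT and 0 below it (pooled median 0.37, with 0.07 in C59A and 0.61 in C59S against the same WT libraries), beside 3.19% and 3.86% of all genes. Postn, the matrix protein periostin, had 1.18, 1.46 and 1.76 CPM in WT, 5.19, 5.84 and 3.48 CPM in C59A and 3.88, 19.04 and 25.9 CPM in C59S, and Dcn, decorin, had 17.8, 11.5 and 17.9 CPM in WT against 19.4 to 88.4 CPM. The highest values of both genes came from C59S replicate 3, which also had the largest mitochondrial share and the highest adipocyte level. Without that library the pooled test called 1 gene, Rac3 (edgeR adjusted p = 0.0472), which says nothing of Postn or Dcn. The separated genes then numbered 1366, but that count rises whichever library is left out, as fewer values have to be cleared. The part of this library in the separated genes was not tested. All 14 macrophage genes had a positive log2 fold change (median 0.65) and 1 was separated, the mannose receptor Mrc1, with 3.67, 3.22 and 4.82 CPM in WT against 5.29 to 11.3 CPM. Of 5 tested neutrophil genes 1 was separated, the G-CSF receptor Csf3r, with 1.98, 2.46 and 2.29 CPM in WT, 8.45, 6.86 and 4.81 CPM in C59A and 2.95, 3.47 and 3.51 CPM in C59S. All 20 endothelial genes had a positive pooled log2 fold change (median 0.45) and none was separated. The median was 0.02 in C59A and 0.77 in C59S against the same WT libraries, so the pooled value lay near neither. None of 11 T and NK cell genes and none of 9 B cell genes was separated, and 5 of the 9 B cell values were negative.

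Of 18 tubular injury genes 3 were separated above WT and 0 below it, beside 3.19% and 3.86% of all genes (median 0.63), and none passed the pooled test. The pooled values were positive for 14 and negative for 4. Against the same WT libraries the median was 0.43 in C59A and 0.27 in C59S, both under the pooled median. Summed over the list, WT libraries held 1148 to 1892 CPM and knock-in libraries 1054 to 2078 CPM, which overlap. Tnfrsf12a, the TWEAK receptor Fn14, had 19.8, 20.9 and 13.6 CPM in WT, 61.3, 43.3 and 38.7 CPM in C59A and 28.3, 23.9 and 27.7 CPM in C59S. Il34, a ligand of the CSF1 receptor, had 9.23, 7.14 and 7.63 CPM in WT, 31.7, 39.1 and 30.1 CPM in C59A and 14.4, 10.2 and 9.65 CPM in C59S. In both genes the C59A values stood well above those of C59S, a difference that passed the direct test for Il34 (edgeR adjusted p = 0.000652) and Tnfrsf12a (0.0306), as it did for Csf3r (0.0375), in a contrast where allele and sex cannot be told apart. Cdkn1a, the cell cycle inhibitor p21, had 5.43, 7.75 and 7.77 CPM in WT against 7.98 to 17.3 CPM, with a small margin. Of 19 complement genes 4 were separated above WT (C5ar1, Cd55, C7 and C6), again beside 3.19% of all genes, and the median was 0.61. C5ar1, the C5a receptor, had 0.632, 1.41 and 0.906 CPM in WT against 1.72 to 3.23 CPM. C7, a part of the membrane attack complex, had 2.53, 3.62 and 2.57 CPM in WT, 9.24, 15.4 and 7.39 CPM in C59A and 4.92, 4.06 and 7.22 CPM in C59S, and Cd55, which dampens complement, had 6.69 to 9.44 CPM in WT against 10.4 to 14.9 CPM.

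**Figure D4:**
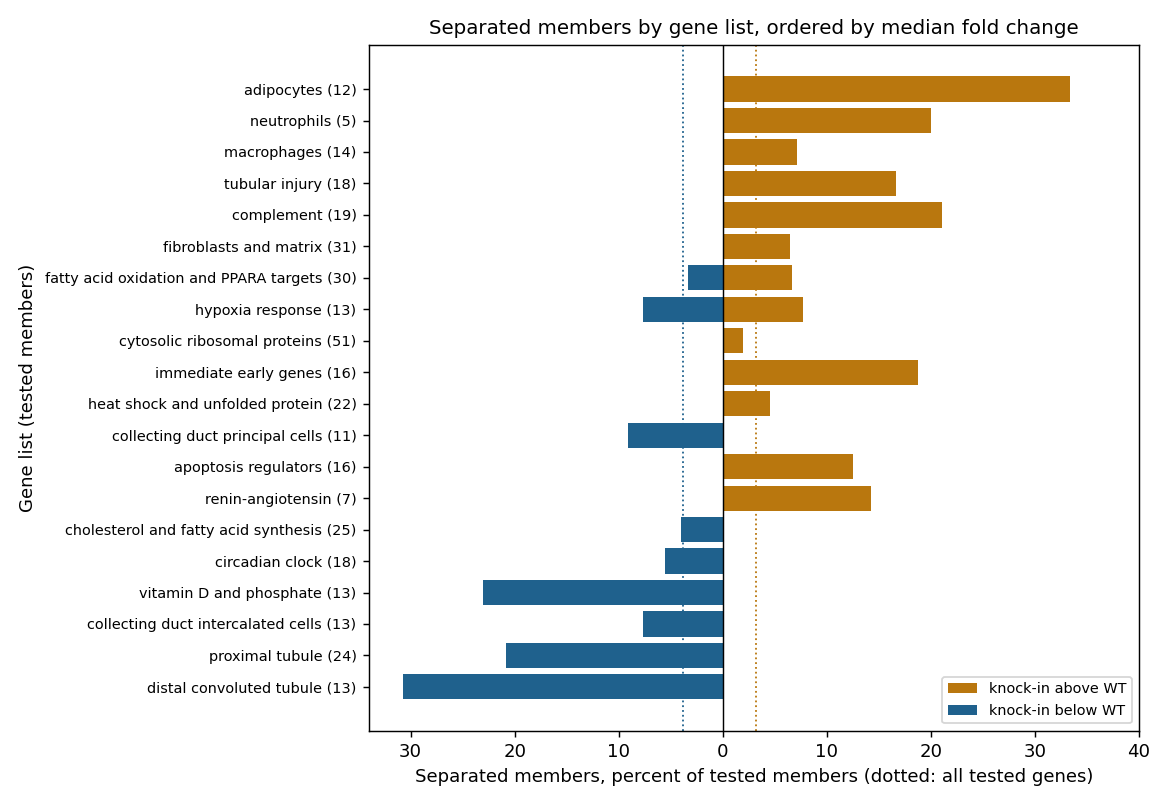
Share of the tested genes of each list that were separated, in percent (horizontal axis), to the right for knock-in above WT and to the left for knock-in below WT, with the number of tested genes in brackets and dotted lines at the shares of all tested genes. Lists without a separated gene and lists not reported here are left out, and the distal convoluted tubule (4 of 13 below) and adipocytes (4 of 12 above) reach farthest.

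Several other lists held 1 to 3 separated genes, to be read against 3.19% of all genes separated upward and 3.86% downward. Of 16 immediate early genes 3 were separated upward: Jund, with 39.9 to 44.4 CPM in WT against 47.3 to 77.5 CPM in the knock-in libraries, Klf4, with 10.5 to 11.2 against 13.4 to 27.8 CPM, and Fosl2, with 14.7 to 16.6 against 16.7 to 24.7 CPM. Of 16 apoptosis regulators 2 were separated upward, the pro-apoptotic Bax (86.3 to 95.6 CPM in WT, 97.6 to 126 CPM in the knock-in libraries) and the anti-apoptotic Bcl2l1 (77.1 to 93.9 against 96.4 to 123 CPM). The margins of Bax and Bcl2l1 were a few percent of the level and that of Fosl2 was smaller still, while that of Klf4 was wider. Over the immediate early list 9 values were positive and 7 negative (pooled median 0.15). Its median was -0.10 in C59A and 0.23 in C59S against the same WT libraries. Over the apoptosis list 10 values were positive and 6 negative (pooled median 0.03). In the hypoxia response Vegfa, the endothelial growth factor, was separated downward with 739, 617.9 and 546 CPM in WT against 333 to 521 CPM, and the oxygen sensor Egln1 upward with 49.5 to 60.1 against 61.3 to 71.3 CPM. Per1, a clock repressor, had 119 to 147 CPM in WT against 56.1 to 113 CPM, 1 of 18 clock genes separated. Agt, angiotensinogen, was 1 of 7 renin-angiotensin genes separated, at 17.8 to 53.6 CPM in WT against 54.0 to 93.0 CPM. Lss, lanosterol synthase, was 1 of 25 genes of cholesterol and fatty acid synthesis, at 23.2 to 27.5 CPM in WT against 19.9 to 23.1 CPM. Rpl17 was the only separated gene among 51 cytosolic ribosomal proteins (median 0.15), and Dnajb9 among 22 heat shock and unfolded protein genes.

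Of 21 tested genes of the NF-kB and Rel family none was separated and none passed the pooled test (edgeR), with a median log2 fold change of 0.04. Of 18 tested inflammatory NF-kB targets none was separated, and 16 had a positive value (median 0.25). With 7.05% of all genes separated, counts of 0 in lists of this size are near the background. Of the family, C59A against WT called Bcl3, an IkappaB protein of the nucleus, and C59A against C59S called Chuk, the kinase IKK alpha, both named after their values were seen. Bcl3 had 9.52, 10.4 and 7.82 CPM in WT, 21.7, 15.1 and 13.6 CPM in C59A and 11.1, 11.5 and 10.3 CPM in C59S, so that C59S replicate 3 just overlapped WT (C59A against WT 0.86 ± 0.19 on the log2 scale, edgeR adjusted p = 0.0227). Chuk had 61.6 to 89.6 CPM in WT, 89.2 to 112 CPM in C59A and 57.1 to 63.0 CPM in C59S (C59A against C59S 0.81 ± 0.15, edgeR adjusted p = 0.0117). Nfkb1 itself had 32.2, 33.8 and 36.8 CPM in WT, 39.7, 31.0 and 29.2 CPM in C59A and 39.7, 37.5 and 36.9 CPM in C59S, which overlap (log2 fold change 0.06 ± 0.12, edgeR adjusted p = 0.853). These counts cover the whole gene and do not check the codon change. None of 25 interferon response genes, 14 genes of antigen presentation, 25 genes of oxidative stress, 29 nuclear genes of the respiratory chain or 18 cell cycle genes was separated. C59A against C59S called 6, 3, 6, 1 and 0 of these in that order (edgeR), beside 5.90% of all genes. Against the same WT libraries the interferon median was -0.20 in C59A and 0.55 in C59S, and that of oxidative stress 0.39 and 0.04. In contrasts with C59A, allele and sex cannot be told apart.

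Around Nfkb1 on chromosome 3, 9 of 111 tested genes within 10 Mb were separated (8.11%, beside 8.09% of chromosome 3 and 7.05% of all genes), 6 above WT and 3 below, and none passed the pooled test (edgeR). C59A against C59S called 13 of these 111 genes, beside 61 of 878 on chromosome 3 and 5.90% of all genes. Manba, the lysosomal beta-mannosidase gene 13.3 kb from Nfkb1 (chromosome 3, 135485611 to 135571404, plus strand), had 70.4, 71.0 and 67.7 CPM in WT, 61.8, 47.7 and 55.6 CPM in C59A and 46.5, 54.3 and 51.8 CPM in C59S. The WT values were nearly equal and the knock-in values all lower (log2 fold change -0.40 ± 0.11, edgeR adjusted p = 0.203). Farther out, Sgms2, a sphingomyelin synthase, had 71.8 to 86.9 CPM in WT against 39.3 to 67.4 CPM, and Sh3glb1, the endophilin B1 gene, 49.2 to 59.1 against 63.8 to 77.1 CPM. Rap1gds1, an exchange factor for small GTPases, had 20.6 to 21.6 CPM in WT against 23.7 to 30.7 CPM. Aimp1, Selenof, Ints12 and the low Gm567 lay above WT and Zgrf1 below, all by small margins in CPM. Over all chromosomes the share of separated genes ran from 5.84% on chromosome 8 to 8.48% on chromosome 15.

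Gene length moved with the direction of separation. The median length of the 13940 tested coding genes was 4182 bases, that of the 512 separated upward 3419 bases and that of the 535 separated downward 5997 bases. In 5 classes of rising length, the share separated upward ran from 5.52% in the shortest class to 2.15% in the longest, and the share separated downward from 1.00% to 7.65%. Per library, the median log2 level of the longest class minus that of the shortest was taken, each relative to the mean of the 9 libraries. It was 0.22, 0.14 and -0.004 in WT. Among the C59A libraries it was 0.02, -0.002 and -0.16, and among the C59S libraries 0.02, -0.12 and -0.13, so WT replicate 3 fell among the knock-in values. The knock-in and WT means differed by -0.18 (exact permutation test, two-sided p = 0.0595). Of the leading genes, Kmt2a, N4bp2, Mbtd1, Ccdc141 and Greb1l, separated downward, fall in the longest class. Tmed5 and Pon2, separated upward, fall in it as well. Rac3 is in the shortest class (1293 bases), and the part of length in the other values was not tested.

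**Figure D5:**
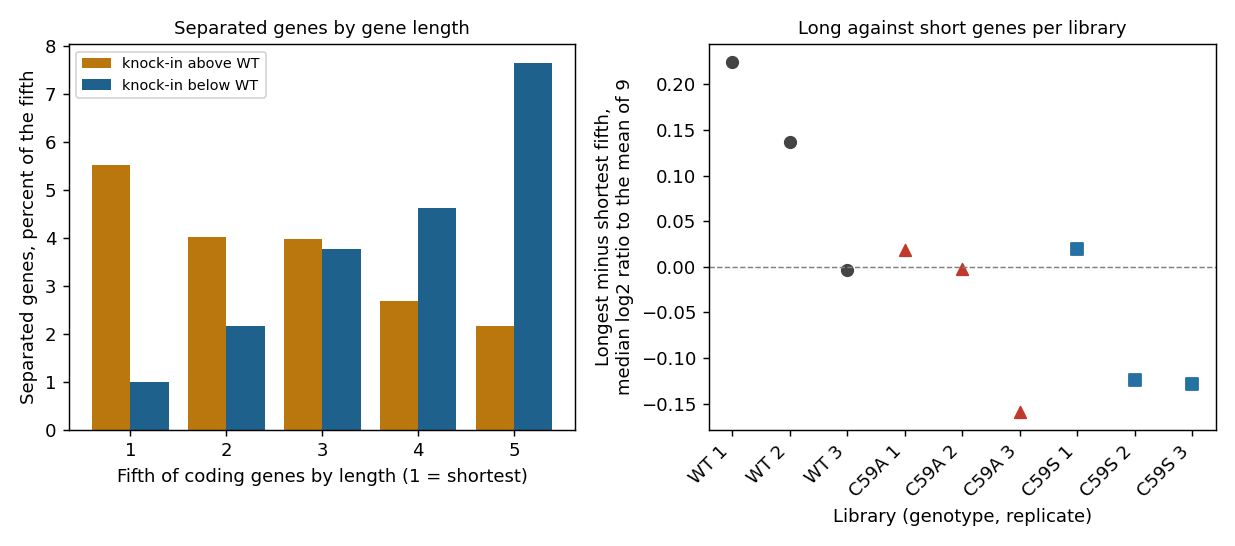
Left, share of protein-coding genes separated in each direction (vertical axis, percent) over 5 classes of gene length (horizontal axis, 1 the shortest); right, median log2 level of the longest class minus that of the shortest in each library (vertical axis, relative to the mean of the 9 libraries). Downward separation grows and upward separation shrinks with length, and 2 WT libraries stand highest while WT replicate 3 lies among the knock-in libraries.

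Genes that do not code for protein were separated mostly downward. Of 2600 tested, 16 were separated upward (0.615%) and 103 downward (3.96%), beside 3.67% and 3.84% of the 13940 coding genes. Among 534 antisense RNAs the counts were 4 upward and 29 downward, and among 543 lincRNAs 3 and 24. Reads of an antisense RNA and its partner cannot be told apart where counting ignores strand, which is not given in the sources used here.

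The threshold of separation is sharp and the counts around it are not. Adss, just inside the upward set, had 56.1 CPM in its lowest knock-in library and 56.1 CPM in its highest WT library, and Kpna4, just outside, had 37.2 CPM in both. Downward, Ccar1 was just inside, with 70.0 CPM in both its highest knock-in and its lowest WT library, and Nup155 just outside, with 10.8 CPM in both. A gap of at least 1.2-fold was held by 51 genes upward and 74 downward. On library totals without TMM factors 1719 genes were separated, 60 upward and 1659 downward, a scaling that moved the median log2 fold change of all genes to -0.20. The share of upward among separated genes was 45.3% with TMM factors, 17.1% on raw counts and 3.49% on library totals. Without WT replicate 3 the count was 3273, without WT replicate 2 it was 2061 and without WT replicate 1 it was 1749. Each case leaves fewer WT libraries to be cleared, and why the counts differ between them was not tested.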

How the data were processed

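Per the labels' protocols, TRIzol was used to extract total RNA from mouse kidney and the NEBNext Ultra kit to prepare the libraries. Per the submitters' processing notes, the tools were CASAVA 1.8, fastp, HISAT2 2.0.5, featureCounts 1.5.0-p3 and DESeq2 1.20.0 on GRCm38, while the annotation, strand setting and handling of reads with several hits are not given in the sources used here. The authors deposited raw counts per gene, which entered every main result as deposited. FPKM values, deposited by the authors per the file headers, served for levels per length and as an alternative with log2(FPKM + 1) or log2(FPKM + 0.1).

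In R 4.3.3, edgeR 4.0.16 kept 17114 genes (filterByExpr by genotype), scaled them with TMM factors and tested 6 knock-in against 3 WT libraries with robust glmQLFit and glmQLFTest. Allele contrasts came from a model of 3 groups. Adjustment ran over all tested genes, and chromosomes 1 to 19 are reported. The SE is the fold change over the square root of F. Total counts limit a level of 3 reads to 0.112 to 0.202 CPM. No pair of libraries within a genotype was a duplicate (chi-square per degree of freedom at least 24.7). The number of unused sample columns was 0. Scripts were tested on simulated data.

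The members and lists were chosen with earlier results of these data known. The rule named Nfkb1, Rac3, the 12 separated coding genes of smallest p per direction with a mean of at least 1 CPM, up to 3 separated genes per list and up to 8 within 10 Mb of Nfkb1, 72 genes in all, some of which are not reported here. Slc6a19, Wnk1, Adipoq, C6, Zgrf1, Bcl3, Chuk, Rac1, Rac2, the genes beside Rac3 and those at the edge of separation were named after their values were seen. Symbols are those of the files, and 52403 of 52636 identifiers were in the gene name table. Alternatives changed the scaling, filter, tool (DESeq2 1.42.0, limma 3.58.1), measure or covariate, or left out each library in turn. Replicate numbers of the titles were not taken as pairs in the main fits.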

Additional observations from a re-analysis of the deposited data

Results flagged for a closer look

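Chance flags about 1 in 20 groups by the distance of a single library from the others. The 6 knock-in libraries, which mix 2 alleles, were examined together for each of the 72 named genes, and all flags of this kind are given here. C59S replicate 3 lay apart at the top for Ccm2 (30.6 CPM), Pparg (9.38 CPM), Klf4 (27.8 CPM) and Mrc1 (11.3 CPM), and C59S replicate 1 at the bottom for Ppara (5.67 CPM). The direct test of C59A against C59S (edgeR, adjusted p under 0.05) set apart 3 named genes that were separated from WT in all 6 knock-in libraries, with C59A higher by 1.55 on the log2 scale for Il34, by 1.02 for Csf3r and by 0.84 for Tnfrsf12a, and allele and sex cannot be told apart in that contrast. Outside chromosomes 1 to 19, the summed level of 4 Y-linked genes was at least 167 CPM in the C59A libraries, beside at most 2.56 CPM in all others.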

How the results depend on the processing

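The pooled comparison called 1 gene, and 34 on library totals, 25 without the filter, 355 with DESeq2 (152 higher, 203 lower), 266 with 3 genotype groups, 5 with limma on unfiltered log2(FPKM + 1) and 0 with the mitochondrial share as a covariate. Leaving out 1 library gave 0 to 11 calls. C59A against WT (936) gave 1500 with DESeq2, 420 with the mitochondrial covariate, 394 on unfiltered FPKM and 485 to 897 without 1 library. C59S against WT (0) gave 19 on library totals, 299 without the filter, 615 with DESeq2 and 0 to 717 without 1 library, the highest without WT replicate 3. C59A against C59S (976) gave 643 on library totals, 1672 with DESeq2, 1624 with limma voom, 497 with the mitochondrial covariate, 637 and 264 on filtered and unfiltered FPKM, and 304 to 1262 without 1 library. The separated genes (1166) numbered 362 on raw counts, 125 with a gap of 1.2-fold and 1366 to 3273 without 1 library. The cause of these shifts was not tested.

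With the replicate block the pooled comparison called 0 genes and Rac3 stood at -1.43 (edgeR adjusted p = 0.146). Same-numbered libraries correlated at -0.288 to 0.318, and 5 of 9 libraries were closest to their own number. The 3 of 9 pairs over 0.1 were those of WT with C59S (0.318, 0.195 and 0.256). Some pairs of different numbers also exceeded 0.1, such as C59A replicate 2 with C59S replicate 1 (0.294). These values do not settle whether the numbers mark pairs, and the main fits did not take them as pairs.

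Over 72 named genes, 1681 of 1795 values kept direction and side of the threshold, 107 passed it anew and 7, all of Rac3, missed it, while the sign was unchanged in 1794. Leaving out 1 library kept Rac3 past the threshold in 4 of 9 cases (edgeR adjusted p 0.00938 to 0.0938).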
